A study of Bos taurus with 12 samples.

Results

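Solute carriers are membrane proteins that move sugars, amino acids, ions, metals, nucleotides and mitochondrial metabolites, and their genes carry symbols made of SLC, a family number and a member. The transcripts described here are those of every probe set whose symbol in the platform's gene table begins with SLC and a digit, so the organic anion carriers of the SLCO family were left out. This gave 252 of the 24128 probe sets of the array, for 179 genes. Both SLC4A1AP and SLC7A6OS entered by their names alone, since they are named for a neighbour or partner of a carrier gene and are not carriers themselves. RNA came from chondrocytes of the distal metacarpal growth plate of male dairy cattle younger than 10 months, released with Collagenase P over 4 hours. Cells were parted by density, the lightest taken as hypertrophic zone (HZ) and the heaviest as reserve zone (RZ), with no other treatment. There were 12 one-colour arrays, 6 of each zone, in 6 pairs. The labels call the pairs independent without saying whether each was 1 animal or a pool, so each p-value rests on the variation among 6 pairs, part of which may be technical, and the small number of arrays limits the precision.

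Chondrocytes live in a tissue without vessels, take up glucose and export lactate, and build a matrix rich in proline, glycine and sulphated sugars. As they enlarge they take up phosphate and load vesicles with mineral. Solute carriers act at each of these steps. Plasma membrane carriers bring in substrate, Golgi carriers supply the sulphate donor and nucleotide sugars for proteoglycans, zinc carriers feed enzymes such as alkaline phosphatase, and the SLC25 family exchanges metabolites across the inner mitochondrial membrane.

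Values are signals recovered from the deposited ratios, and differences between zones are HZ minus RZ within pairs on the scale of log2(signal + 16), which shrinks the change of dim probe sets. Folds are on this scale too, so they can be smaller than the ratio of the mean signals. Signals of different genes were not compared, since they come from different probes. In bulk RNA, fewer cells of a type and less RNA per cell cannot be told apart. "Passed" means an adjusted p under 0.05 in a limma fit that holds the pair as a block, adjusted by Benjamini-Hochberg across the 24016 probe sets other than controls. Where a gene had several probe sets, as 51 of the 179 did, it was read from the brightest one.

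Of 9 measured hypertrophic zone genes, 6 rose (MMP13, IHH, MEF2C, PTH1R, ALPL and SCIN) and 0 fell, where 4.17% and 3.56% of all named genes did. The defining collagen of that zone, COL10A1, gave 0.11 ± 0.16 (SE, adjusted p = 0.755, higher in 4 of 6 pairs), and IBSP and SPP1 gave 0.14 and 0.31 without passing. Similarly, of 5 reserve zone genes 0 rose and 4 fell, while of 8 cartilage genes 7 did not pass. Markers of other cells also differed between the fractions. Of 7 macrophage genes 5 rose (C1QA, C1QB, C1QC, CSF1R and AIF1), while CD68 and CD14 gave 0.14 and -0.81 without passing. The summed signal of the 7 was 1374 to 3039 in HZ and 978 to 2210.3 in RZ, higher in HZ in 4 of 6 pairs. Among 3 osteoclast genes CTSK and ACP5 rose (7121 to 9874 and 2291 to 5476). Of 7 lymphocyte genes 3 fell (186 to 359 and 319 to 1086). Of 8 granulocyte genes 1 fell (475 to 2062 and 669 to 10390.2), as did 1 of 6 endothelial genes and 2 of 6 fibroblast genes. Of 5 osteoblast genes DMP1 rose and 4 did not pass, with COL1A2, COL1A1 and BGLAP at -1.12, -1.05 and -0.99 and a list median of -0.99. Their summed signal was lower in HZ in 6 of 6 pairs (1366 to 4805 and 1487 to 17917). Of 6 erythroid and 3 adipocyte genes 0 passed. The 3' over 5' signal of actin, a sign of RNA quality, had a log2 that averaged 3.03 ± 0.685 for HZ arrays against 2.34 ± 0.453 for RZ arrays (SD, n = 6). The HZ array was the higher one for 5 of 6 pairs, with p = 0.0625 by a two-sided exact permutation of signs, whose smallest p is 0.03125. For GAPDH the log2 averaged 0.519 ± 0.651 in HZ and 0.103 ± 0.285 in RZ, higher in HZ for 5 of 6 pairs (p = 0.125, same permutation). EF1A went the other way, at -2.50 ± 0.394 and -2.26 ± 0.295, higher in HZ for 1 of 6 pairs (p = 0.406, same permutation). The arrays of pairs 1 and 2 also had a coarser step between deposited ratios (0.0237 to 0.0318) than those of pairs 3 to 6 (0.00884 to 0.0110), so differences are given within each set of pairs where they matter. The part of these features in the results below was not tested.

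Of the 252 SLC probe sets, 6 rose in HZ, 12 fell and 234 did not pass. Over all probe sets tested, 3.26% rose and 2.96% fell. At the level of genes, 5 of 179 rose (2.79%) and 12 fell (6.7%), where 4.17% of all 9155 named genes rose and 3.56% fell. The median SLC gene differed by 0.0010 and the median of all genes by -0.011 on the log2 scale. The genes that rose were SLC25A20, SLC39A8, SLC25A37, SLC46A3 and SLC51B, and those that fell were SLC6A14, SLC5A2, SLC29A1, SLC3A2, SLC37A1, SLC38A3, SLC17A9, SLC6A20, SLC2A6, SLC4A7, SLC30A5 and SLC11A2. The arrays of the zones did not overlap for 3 genes higher in HZ (SLC25A20, SLC25A37 and SLC25A51) and 5 lower (SLC3A2, SLC6A14, SLC38A3, SLC2A6 and SLC30A5), against 2.44% and 1.42% of all named genes. Without pair 1, 4, 5 or 6 the genes that rose numbered 2, and those that fell 6, 5, 3 and 6. Without pair 2 they numbered 4 and 8, and without pair 3, 4 and 15. Counts over all probe sets moved as well, from 782 higher and 712 lower to 383 and 242, 384 and 248, 334 and 223, and 466 and 348 without pair 1, 4, 5 or 6, to 650 and 406 without pair 2 and to 645 and 895 without pair 3. Leaving out pairs 3 and 4, whose HZ arrays had the highest 3' over 5' signal of GAPDH, left SLC25A20 as the 1 gene that rose and SLC6A14 as the 1 that fell. That alternative was added once the values were known.

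**Figure D1:**
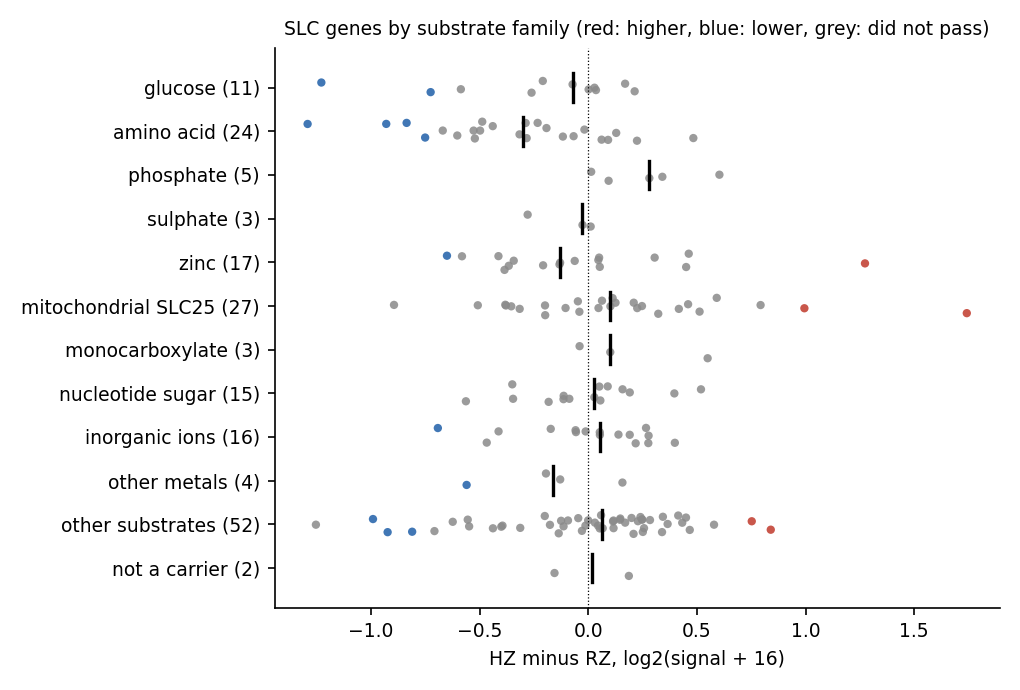
Log2 difference between HZ and RZ (horizontal axis, log2(signal + 16)) of each of the 179 SLC genes at its brightest probe set, by substrate family with the number of genes in parentheses. Points are genes, black bars are family medians, red and blue mark genes that passed as higher or lower. The amino acid family has 4 blue points and a median of -0.30, and the mitochondrial family has 2 red points.

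**Figure D2:**
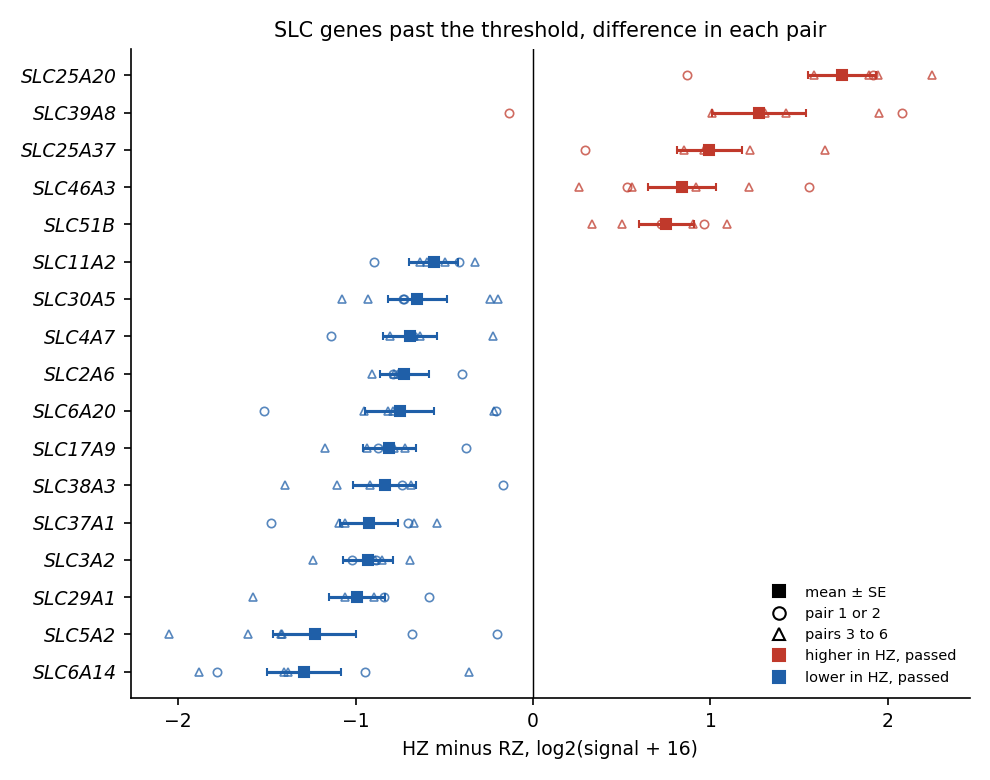
Differences in each pair for the 17 SLC genes that passed, on the axis HZ minus RZ in log2(signal + 16). Squares with bars are the mean ± SE over 6 pairs, circles are pairs 1 and 2 and triangles pairs 3 to 6. Each gene lies on 1 side of 0 in all pairs, except SLC39A8 in pair 2 at -0.13.

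Of 27 mitochondrial carriers, 2 rose and 0 fell, where 4.17% and 3.56% of all named genes did. SLC25A20, the carnitine-acylcarnitine carrier that brings fatty acids into the mitochondrion for oxidation, had signals of 1848 to 3409.7, with a median of 3004, in HZ and 587 to 1126, with a median of 807 in RZ. Every HZ array lay above every RZ array. The mean rose from 831 ± 208 to 2812 ± 633 (SD, n = 6), a 3.34-fold change or log2 1.74 ± 0.19 (SE, adjusted p = 0.00184). The second probe set of the gene rose too, by log2 1.10 ± 0.15 (SE, adjusted p = 0.00481). Pairs 1 and 2 gave 1.39 and the other 4 pairs 1.92, and the gene passed in each of the 6 fits with a pair left out (1.64 to 1.92). Among other genes of the carnitine route, SLC22A5 and CPT2 did not pass. SLC22A5, which takes carnitine into the cell, gave 0.41 ± 0.18 (SE, adjusted p = 0.215), and CPT2, which hands the acyl group back to coenzyme A inside the mitochondrion, gave 0.51 ± 0.16 (adjusted p = 0.09), higher in 5 and 6 of 6 pairs. The dimmer probe set of SLC22A5 gave -0.13.

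SLC25A37, or mitoferrin 1, carries iron into mitochondria for haem and iron-sulphur clusters. Its signals were 779 to 1583, with a median of 1313, in HZ and 494 to 730.3, with a median of 642 in RZ, again without overlap. HZ-2 was the lowest of the HZ arrays, and the other HZ arrays lay between 1219 and 1583. The rise was log2 0.99 ± 0.18 (SE, adjusted p = 0.0148). Pairs 1 and 2 gave 0.64 and pairs 3 to 6 gave 1.17. Without pair 4 or pair 5 it missed the threshold (adjusted p = 0.0527 and 0.0513, log2 0.95 without pair 4), and without both pairs 3 and 4 adjusted p was 0.0985. Its close relative SLC25A28, mitoferrin 2, gave -0.11 ± 0.19 (SE, adjusted p = 0.809). Mitoferrin 1 is abundant in red cell precursors. The 6 measured erythroid genes, ALAS2 and HBB among them, did not pass, with a summed signal of 98.9 to 239.9 in HZ and 117 to 284 in RZ, and 2 of the 6 had a mean signal under 16. The anion exchanger of red cells, SLC4A1, had a mean signal of 16.2 in HZ and 10.4 in RZ and did not pass either (adjusted p = 0.594).

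The other 25 of 27 SLC25 genes did not pass, and their median was 0.063. Within the adenine nucleotide translocases, which swap ATP for ADP, SLC25A5 had signals of 1369.7 to 3878, with a median of 2961, in HZ and 1454 to 1738, with a median of 1544 in RZ. HZ-2 lay below every RZ array and the other HZ arrays above them all, so pair 2 gave -0.34 where the others gave 0.64 to 1.38. The difference of 0.79 ± 0.23 (SE) had an adjusted p of 0.0704, and 0.0198 without pair 2, where log2 was 1.02. It also passed after quantile normalization and among the brighter probe sets alone (adjusted p = 0.0351 and 0.0129). Its second, dimmer probe set gave -0.02. SLC25A4 gave 0.046 ± 0.15 and SLC25A6 -0.38 ± 0.18 (SE, adjusted p = 0.903 and 0.245). The phosphate carrier SLC25A3, which supplies ATP synthesis, gave -0.20 ± 0.18 (SE, 95% interval -0.59 to 0.19), and -0.047 without pair 4.

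Among the remaining mitochondrial carriers, SLC25A51, which imports NAD, gave 0.59 ± 0.16 (SE, adjusted p = 0.064) and SLC25A30 0.51 ± 0.14 (adjusted p = 0.0683), each higher in HZ in 6 of 6 pairs. The citrate carrier SLC25A1, which feeds fatty acid synthesis, gave 0.46 ± 0.16 (adjusted p = 0.128), also in 6 of 6 pairs. Of these, SLC25A51 had no overlap between zones (143 to 242 in HZ and 95.5 to 134 in RZ). The lowest value was that of the ornithine carrier SLC25A15 at -0.89 ± 0.44 (adjusted p = 0.27), lower in 4 of 6 pairs ranging from -3.18 in pair 3 to 1.14 in pair 6. None of 14 other mitochondrial transport genes passed in limma, with 2 at an unadjusted p under 0.05, as were 25.1% of all named genes. Among them the pyruvate carrier subunits MPC1 and MPC2 gave -0.20 and 0.30, and the outer membrane channels VDAC1, VDAC2 and VDAC3 gave -0.057, -0.082 and 0.28.

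**Figure D3:**
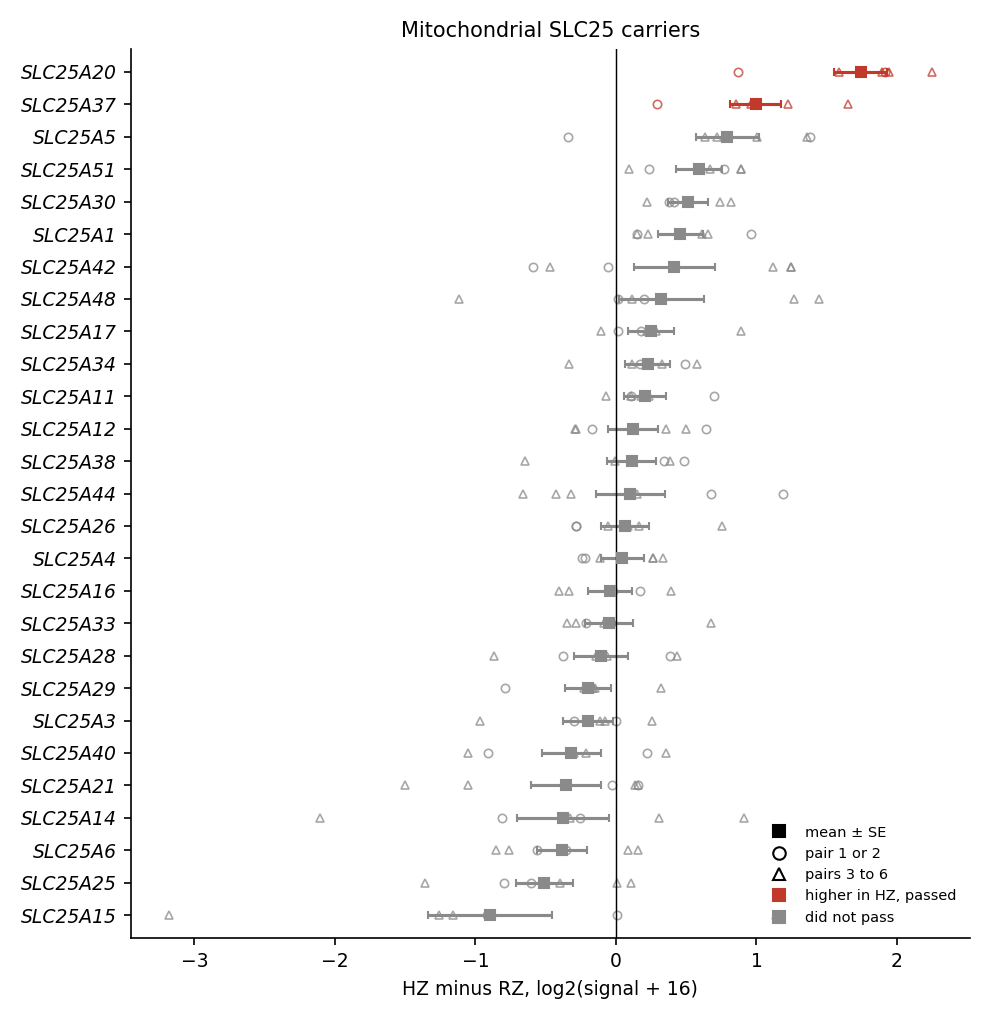
The 27 mitochondrial SLC25 genes ordered by their difference, on the axis HZ minus RZ in log2(signal + 16). Squares with bars are the mean ± SE over 6 pairs, open circles pairs 1 and 2, open triangles pairs 3 to 6, and red marks the genes that passed. SLC25A20 and SLC25A37 are the red rows at the top, and the 25 grey rows run from -0.89 to 0.79.

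In the amino acid carriers 4 of 24 genes fell, 0 rose and 20 did not pass, where 3.56% of all named genes fell and 4.17% rose. The family's median was -0.30, with 19 genes below 0 and 5 above, where all named genes had a median of -0.011. Pairs 1 and 2 gave a family median of -0.41, and pairs 3 to 6 gave -0.31. It was -0.19 without pair 3 and -0.53 among the brighter probe sets alone. SLC3A2, the heavy chain 4F2hc that brings several light chains to the cell surface, had signals of 1577 to 3105, with a median of 2879, in HZ and 3215 to 7346, with a median of 5159 in RZ. Each HZ array lay below each RZ array, with HZ-2 the lowest of all at 1577 and RZ-2 the lowest of its zone. The fall was 1.91-fold, log2 -0.93 ± 0.14 (SE, adjusted p = 0.00734), lower in 6 of 6 pairs and passing in all 6 fits with a pair left out (-0.98 to -0.87). Without pairs 3 and 4 together, log2 was -0.86 and adjusted p 0.0612.

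SLC7A5, the light chain LAT1 that joins SLC3A2 to exchange large neutral amino acids, was lower in HZ in 6 of 6 pairs and missed the threshold. Its signals were 431 to 2779, with a median of 1862, in HZ and 1133 to 3239, with a median of 2697 in RZ, and the zones overlapped widely. The difference was -0.67 ± 0.19 (SE, adjusted p = 0.0726). Pairs 1 and 2 gave -1.24 and pairs 3 to 6 gave -0.39. It passed with 64 added in place of 16 (adjusted p = 0.0409) and among the brighter probe sets alone (adjusted p = 0.016). SLC7A7, another light chain, gave 0.22 ± 0.16 (SE, adjusted p = 0.471), and the cationic carrier SLC7A1 -0.23 ± 0.15 (adjusted p = 0.392). The heavy chain SLC3A1 gave -0.19 ± 0.19 (SE, adjusted p = 0.612).

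SLC6A14, a sodium- and chloride-driven carrier of neutral and cationic amino acids, fell in every pair. Its signals were 56.3 to 99.4, with a median of 89.7, in HZ and 122 to 380.3, with a median of 230.3 in RZ, with no overlap. The fall was 2.45-fold, log2 -1.29 ± 0.21 (SE, adjusted p = 0.00992), and it passed with any 1 pair left out (-1.48 to -1.17). SLC6A20, which carries proline, fell by 0.75 ± 0.19 (SE, adjusted p = 0.0499), although its signals overlapped, at 63.0 to 445, with a median of 208, in HZ and 199 to 781, with a median of 296 in RZ. It was lower in HZ in 6 of 6 pairs and lay next to the threshold. Its call was lost with any pair other than pair 3 left out (log2 -0.86 to -0.60, adjusted p = 0.0535 without pair 2 and 0.12 to 0.134 without pair 1, 4, 5 or 6), with no pair block (adjusted p = 0.385) and after quantile normalization (adjusted p = 0.0605). The proline carrier and the others of this sodium-driven branch made up 5 genes, of which the glycine carrier SLC6A9 gave -0.44 ± 0.25 (SE, adjusted p = 0.339). The dimmer probe set of SLC6A9 gave 0.44, so the direction of this gene was not settled.

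Glutamine carriers of the SLC38 family had 1 of 5 genes fall. SLC38A3, a system N carrier of glutamine, had signals of 81.6 to 146, with a median of 104, in HZ and 147 to 245, with a median of 218 in RZ, with RZ-1 barely above the highest HZ array. It fell by 0.84 ± 0.18 (SE, adjusted p = 0.0254), and its other probe sets gave -0.88 and -0.23 (adjusted p = 0.11 and 0.429). It passed without pair 1 or pair 3, and missed the threshold without pair 2, 4, 5 or 6 (adjusted p = 0.0544, 0.0808, 0.0677 and 0.0678, log2 -0.87 to -0.78). It also missed as the mean of its probe sets (log2 -0.65, adjusted p = 0.0513), with 1 added and with the deposited ratio (adjusted p = 0.0652 and 0.0712). SLC38A2, the system A carrier that rises when amino acids are short, had signals of 2739.6 to 8245, with a median of 4688, in HZ and 4358 to 9473, with a median of 6948 in RZ. Its difference was -0.53 ± 0.18 (SE, adjusted p = 0.119), lower in 5 of 6 pairs, with 0.27 in pair 3 and an adjusted p of 0.0346 without it (log2 -0.69). The glutamine carriers SLC38A5 and SLC1A5 gave -0.52 ± 0.16 and -0.32 ± 0.17 (SE, adjusted p = 0.0831 and 0.298), and the serine and alanine carrier SLC1A4 -0.60 ± 0.23 (adjusted p = 0.161). The highest value was that of the glutamate carrier SLC1A3 at 0.48 ± 0.22 (SE, adjusted p = 0.224), a dim probe set with means of 24.2 in HZ and 13.5 in RZ.

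Of 10 measured genes of amino acid use, sensing and shortage response, 4 fell, 1 rose and 5 did not pass. Over all named genes, 3.56% fell and 4.17% rose. Enzymes of serine synthesis and use, PSAT1, PHGDH and SHMT2, fell by 1.14 ± 0.22, 0.86 ± 0.17 and 0.80 ± 0.16 (SE, adjusted p = 0.0171, 0.0189 and 0.0213). SESN2, a leucine sensor induced by amino acid shortage, fell by 0.97 ± 0.15 (adjusted p = 0.00774). ATF4, the transcription factor of the shortage response, gave -0.34 ± 0.14 (adjusted p = 0.175) and was lower in HZ in 6 of 6 pairs. LAMTOR1, which anchors the sensing complex mTORC1 to lysosomes, rose by 0.76 ± 0.14 (SE, adjusted p = 0.0173). RRAGC gave 0.57 ± 0.18 (SE, adjusted p = 0.0901) and was higher in HZ in 6 of 6 pairs, with no overlap between zones.

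**Figure D4:**
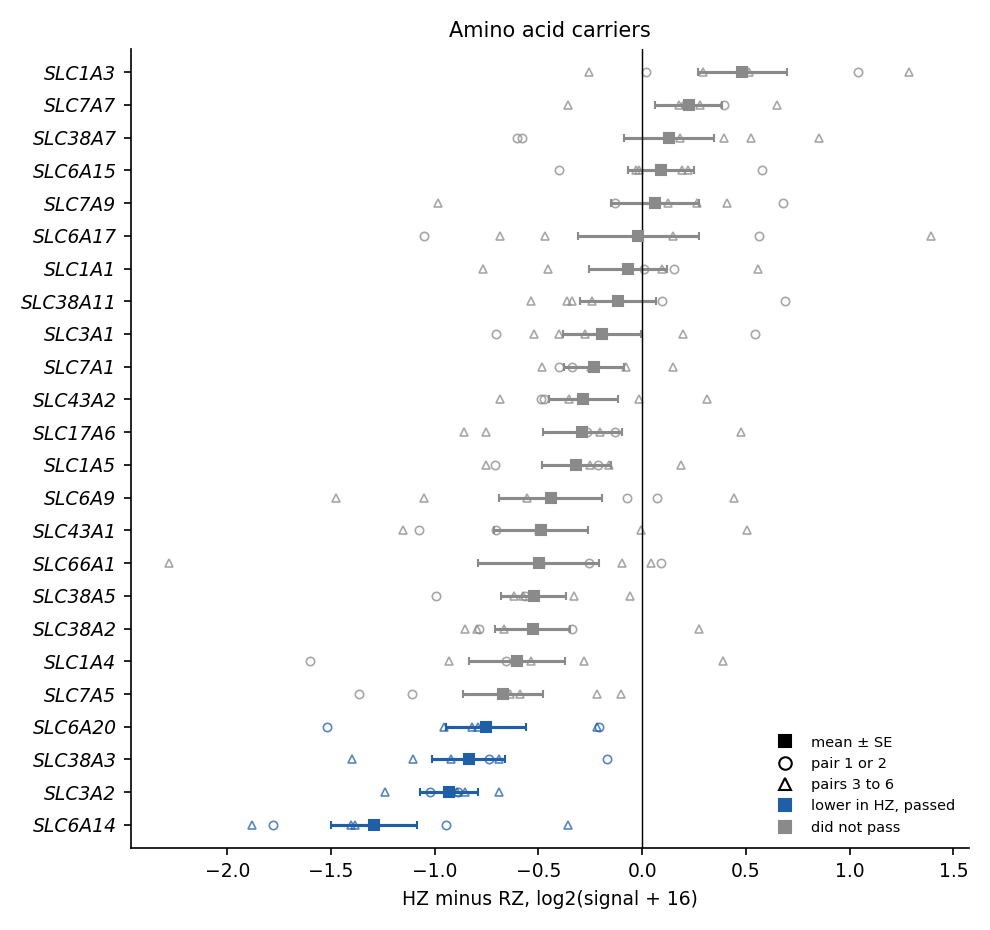
The 24 amino acid carrier genes ordered by their difference, on the axis HZ minus RZ in log2(signal + 16), with the same marks as in the plot of the mitochondrial carriers and blue for genes that fell. SLC6A14, SLC3A2, SLC38A3 and SLC6A20 are the blue rows at the bottom, and the 20 grey rows run from -0.67 to 0.48.

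Of 17 zinc carriers, 1 rose and 1 fell (5.88% each), close to the 4.17% and 3.56% of all named genes, with a family median of -0.13. SLC39A8 (ZIP8), which brings zinc and manganese into the cell, had signals of 44.9 to 155, with a median of 100.1, in HZ and 19.8 to 50.8, with a median of 28.4 in RZ. In 5 pairs HZ was higher by 1.01 to 2.08, and in pair 2 the difference was -0.13, with HZ-2 the 1 HZ array inside the RZ range. The rise was 2.42-fold, log2 1.27 ± 0.27 (SE, adjusted p = 0.0243). Without pair 2 it was 1.55 (adjusted p = 0.00625). The call was lost without pair 1, 4, 5 or 6 (log2 1.11, 1.24, 1.27 and 1.14, adjusted p = 0.0689 to 0.0762) and with 1 added in place of 16 (adjusted p = 0.0698). Macrophages also express this carrier, and the 5 macrophage genes named above were higher in HZ in 6 of 6 pairs. The other 2 measured did not pass. CD14 was lower in HZ in 5 of 6 pairs (-0.81 ± 0.26, SE, adjusted p = 0.103), and CD68 was higher in 5 (0.14 ± 0.14, adjusted p = 0.643). In pair 2, where SLC39A8 was not higher, AIF1, C1QB, C1QA, C1QC and CSF1R differed by 1.83, 1.63, 1.28, 0.57 and 0.013. CD68 and CD14 differed there by 0.18 and -0.48. Whether macrophages contributed to the rise of SLC39A8 was not tested.

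SLC30A5 (ZnT5), which loads zinc into the secretory pathway where alkaline phosphatase matures, fell by 0.65 ± 0.17 (SE, adjusted p = 0.0486). Its signals were 419 to 739.9, with a median of 682, in HZ and 826 to 1235, with a median of 981 in RZ. No HZ array reached the lowest RZ array, yet pairs 3 and 6 differed by -0.20 and -0.24 where pair 5 differed by -1.08. It passed without pair 3, and not without pair 1, 2, 4, 5 or 6 (log2 -0.73 to -0.57, adjusted p = 0.0649 to 0.142) nor with no pair block (adjusted p = 0.0588). SLC30A1, which exports zinc at the plasma membrane, gave 0.31 ± 0.15 (SE, adjusted p = 0.281).

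Of the 13 importers of the SLC39 family, SLC39A8 included, 9 lay below 0. SLC39A1 was lower in HZ in 6 of 6 pairs and gave -0.58 ± 0.15 (SE, adjusted p = 0.0532), with signals of 304 to 627, with a median of 408, in HZ and 489.98 to 864, with a median of 593 in RZ. SLC39A14, which carries zinc and manganese, gave -0.21 ± 0.14 (95% interval -0.53 to 0.11), and SLC39A13, a Golgi zinc carrier whose loss causes a connective tissue disorder, -0.13 ± 0.15 (95% interval -0.47 to 0.21). Of 4 measured zinc partners 0 passed in limma, and 0 had an unadjusted p under 0.05. The metallothioneins MT1A and MT2A, which bind zinc, gave 0.024 ± 0.19 and -0.25 ± 0.17, and MTF1, the transcription factor that senses it, 0.26 ± 0.15 (SE).

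**Figure D5:**
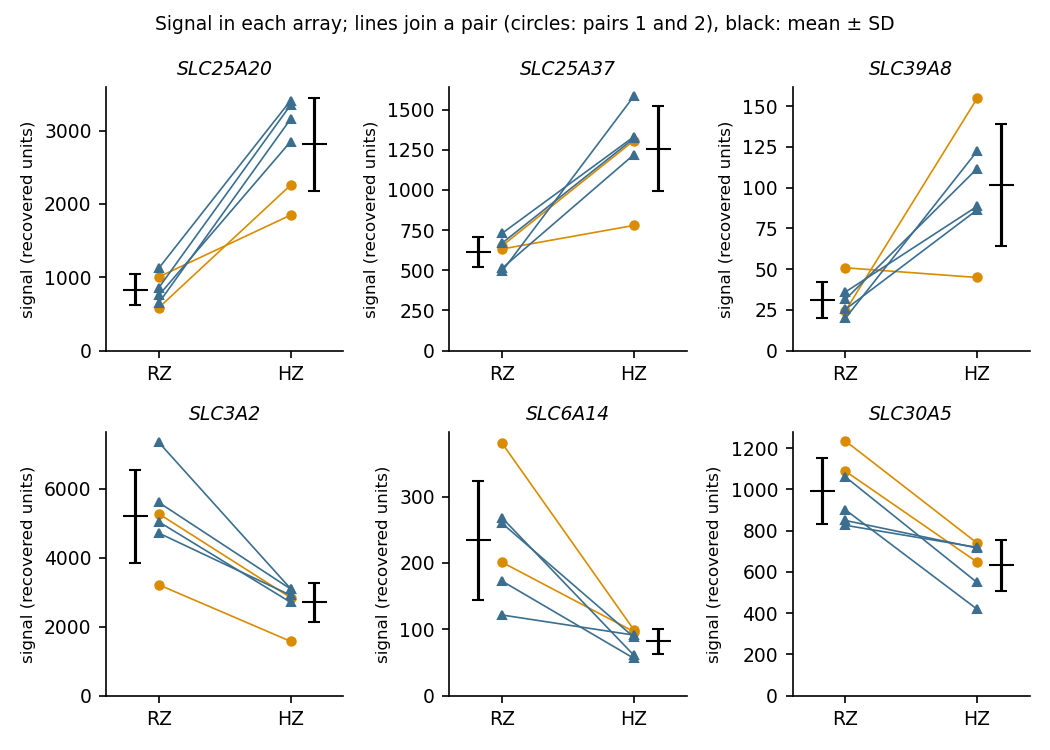
Signal (vertical axis, recovered units, starting at 0) on each array of 3 rising and 3 falling genes. Lines join the RZ and HZ arrays of a pair. Orange circles are pairs 1 and 2, blue triangles pairs 3 to 6, and black marks the mean ± SD of 6 arrays. The HZ and RZ points are apart for SLC25A20, SLC25A37, SLC3A2, SLC6A14 and SLC30A5, and meet in pair 2 for SLC39A8.

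Of 11 glucose and hexose carriers, 2 fell and 0 rose, where 3.56% and 4.17% of all named genes did. SLC2A6 (GLUT6), a carrier of intracellular membranes, had signals of 90.5 to 134, with a median of 106, in HZ and 168 to 238, with a median of 189 in RZ. The zones did not overlap, and the fall was 1.65-fold, log2 -0.73 ± 0.14 (SE, adjusted p = 0.0168). It passed without pair 2 or 3 and missed without pair 1, 4, 5 or 6 (log2 -0.73 to -0.69, adjusted p = 0.0523 to 0.0575). SLC5A2, the sodium-driven glucose carrier SGLT2 of the kidney, fell by 1.23 ± 0.23 (SE, adjusted p = 0.0171). It was dim, at 15.7 to 84.3, with a median of 18.1, in HZ and 44.2 to 118, with a median of 81.5 in RZ. The HZ median stood far below HZ-2, which at 84.3 was the 1 HZ array inside the RZ range. Pairs 1 and 2 gave -0.44 and the other 4 pairs -1.62, and it missed the threshold without pair 4 or pair 5 (adjusted p = 0.0595 and 0.0595, log2 -1.15 and -1.19).

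SLC2A1 (GLUT1), a main glucose carrier of chondrocytes, did not pass. Its signals were 1714 to 5612, with a median of 3453, in HZ and 3459.6 to 6775, with a median of 4932 in RZ, lower in HZ in 5 of 6 pairs and slightly higher in pair 3. The difference was -0.59 ± 0.20 (SE, adjusted p = 0.126, 95% interval -1.04 to -0.13), and among the brighter probe sets alone it passed (adjusted p = 0.038). SLC2A8 and the dim SLC2A3 and SLC2A5 gave 0.17 ± 0.14, -0.26 ± 0.30 and 0.0010 ± 0.18 (SE), the sign of SLC2A5 turning with 64 added and after quantile normalization. SLC2A3 gave -0.58 without pair 5 and -0.089 without pair 2. Of 6 measured genes of glucose use, HK1, the hexokinase that traps glucose in the cell, fell by 0.85 ± 0.14 (SE, adjusted p = 0.0111) and 5 did not pass. The monocarboxylate carriers SLC16A1 and SLC16A3, which export lactate, gave 0.55 ± 0.20 and 0.10 ± 0.17 (SE, adjusted p = 0.144 and 0.784). SLC16A1 had signals of 1557 to 3193, with a median of 2487, in HZ and 1389.5 to 1761, with a median of 1589.6 in RZ, higher in HZ in 5 of 6 pairs, and it passed among the brighter probe sets alone (adjusted p = 0.0481). BSG, the chaperone of both, gave -0.38 ± 0.16 (adjusted p = 0.191), and the lactate dehydrogenases LDHA and LDHB gave -0.36 ± 0.21 and 0.50 ± 0.21 (adjusted p = 0.364 and 0.203).

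None of the 5 phosphate carriers passed in limma, with 2 at an unadjusted p under 0.05 (25.1% of all named genes). The 5 differences lay above 0 with a median of 0.28, which was 0.10 when the probe sets of a gene were averaged, as SLC34A1 then gave 0.10. SLC20A1 (PIT1), the sodium-driven phosphate carrier of mineralising cells, had signals of 8935 to 15112, with a median of 12254, in HZ and 8173 to 10742, with a median of 9316 in RZ. HZ was higher in 6 of 6 pairs, though the zones overlapped. The difference was 0.34 ± 0.14 (SE, adjusted p = 0.201, 95% interval 0.017 to 0.66). SLC20A2 gave 0.013 ± 0.15 (95% interval -0.32 to 0.34), with its sign turning to -0.0042 after quantile normalization. SLC34A1, a kidney phosphate carrier, gave 0.28 ± 0.14, and SLC17A2, a dim probe set, 0.60 ± 0.20 (SE, adjusted p = 0.273 and 0.109). Of 3 measured phosphate partners, ALPL, the alkaline phosphatase that frees phosphate, rose by 0.73 ± 0.16 (SE, adjusted p = 0.029). ANKH, which exports the mineral inhibitor pyrophosphate or its precursor, fell by 0.80 ± 0.13 (adjusted p = 0.0106), and ENPP1, which makes pyrophosphate, gave -0.14 ± 0.16 (adjusted p = 0.676).

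The 3 sulphate carriers did not pass in limma, and 0 had an unadjusted p under 0.05. SLC35B2, which brings the sulphate donor PAPS into the Golgi, had signals of 647 to 1015, with a median of 838, in HZ and 722 to 1001, with a median of 817 in RZ. The zones overlapped throughout, and the difference was -0.027 ± 0.14 (SE, 95% interval -0.33 to 0.28), turning to 0.033 after quantile normalization. SLC13A4, a sodium-sulphate carrier, gave -0.28 ± 0.22, and SLC26A11 0.010 ± 0.15 (SE, adjusted p = 0.516 and 0.979). SLC13A4 gave -0.10 without pair 1 and -0.43 without pair 3. Of 7 measured partners, PAPSS1, which makes PAPS, fell by 0.99 ± 0.20 and the uronyl sulphotransferase UST by 0.88 ± 0.14 (SE, adjusted p = 0.0223 and 0.00997), and 5 did not pass.

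None of the 15 carriers of the nucleotide sugar families passed in limma, with 4 at an unadjusted p under 0.05 (25.1% of all named genes) and a median of 0.027. The largest differences were those of SLC35A3, which carries UDP-N-acetylglucosamine, at -0.56 ± 0.20 (SE, adjusted p = 0.129), and of SLC35G2 at 0.52 ± 0.22 (adjusted p = 0.198), the latter with mean signals of only 11.6 in HZ and 1.55 in RZ. SLC35D2, which carries nucleotide sugars into the Golgi, gave 0.40 ± 0.15 (adjusted p = 0.159).

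Of 16 carriers of bicarbonate, protons, sodium, calcium and chloride, 1 fell (6.25%), where 3.56% of all named genes did. SLC4A7, which brings sodium and bicarbonate into the cell and raises its pH, had signals of 1274 to 3214, with a median of 1915, in HZ and 2795 to 3766, with a median of 3175 in RZ. HZ was lower in 6 of 6 pairs, with HZ-3 inside the RZ range. The fall was log2 -0.69 ± 0.15 (SE, adjusted p = 0.0304), lost without pair 1, 2, 4, 5 or 6 (-0.70 to -0.60, adjusted p = 0.0668 to 0.0976) and with no pair block (adjusted p = 0.0775). The chloride-bicarbonate exchanger SLC4A2 gave -0.47 ± 0.19, and SLC12A2, which brings in sodium, potassium and chloride as cells regulate their volume, 0.40 ± 0.17 (SE, adjusted p = 0.179 and 0.209), higher in HZ in 6 of 6 pairs. Of 4 carriers of other metals, SLC11A2 (DMT1), which brings iron into the cytosol, fell by 0.56 ± 0.14 (SE, adjusted p = 0.0463). Its signals were 179 to 258, with a median of 185, in HZ and 249 to 369.9, with a median of 297 in RZ, lower in HZ in 6 of 6 pairs. It passed without pair 3 and missed without pair 1, 2, 4, 5 or 6 (log2 -0.59 to -0.49, adjusted p = 0.0796 to 0.142) and with no pair block (adjusted p = 0.061). SLC11A1, the related carrier of phagocytes, gave -0.20 ± 0.30 (SE, adjusted p = 0.77).

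Among the 52 carriers of other substrates, 2 rose (3.85%) and 3 fell (5.77%), where 4.17% and 3.56% of all named genes did. SLC29A1 (ENT1), which equilibrates adenosine and other nucleosides across the plasma membrane, had signals of 1621 to 5017, with a median of 2714, in HZ and 2908 to 9988, with a median of 5365 in RZ. Pair 6 was the brightest in both zones, so the zones overlapped although HZ was lower in every pair. The fall was 1.99-fold, log2 -0.99 ± 0.16 (SE, adjusted p = 0.00992), passing in all 6 fits with a pair left out and not with no pair block (adjusted p = 0.0876). SLC17A9, which loads ATP into vesicles, fell by 0.81 ± 0.15 (SE, adjusted p = 0.015), from a median of 520.1 in RZ (387 to 813) to 315 in HZ (218 to 417). It missed the threshold without pair 1 or 5 (log2 -0.80 and -0.79, adjusted p = 0.05003 and 0.0566) and with no pair block (adjusted p = 0.0631).

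SLC37A1, which exchanges glucose 6-phosphate for phosphate at the endoplasmic reticulum, was dim, with signals of 2.54 to 43.1, with a median of 12.4, in HZ and 22.4 to 78.1, with a median of 44.1 in RZ. It fell by 0.92 ± 0.16 (SE, adjusted p = 0.0128), lower in 6 of 6 pairs. At this level the added constant sets the size, which was -1.70 with 1 added (adjusted p = 0.0549). Without pair 5 adjusted p was 0.0508 (log2 -0.90), and with no pair block 0.155.

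SLC46A3, a lysosomal carrier, rose from a median of 196 in RZ (160.4 to 237) to 372 in HZ (233 to 615). HZ was higher in 6 of 6 pairs, most in pair 1 at 1.55 and least in pair 4 at 0.26. The rise was log2 0.84 ± 0.19 (SE, adjusted p = 0.0328), and it was lost without pair 1, 2, 3, 5 or 6 (0.70 to 0.90, adjusted p = 0.0544 to 0.103). SLC51B, the beta subunit of a carrier of bile acids and steroids, rose from a median of 68.0 (35.2 to 98.5) to 117 (93.5 to 146), log2 0.75 ± 0.15 (SE, adjusted p = 0.0224), in 6 of 6 pairs. It missed without pair 1, 2, 4 or 6 (0.68 to 0.76, adjusted p = 0.0518 to 0.0759) and with no pair block (adjusted p = 0.061). SLC51A, the alpha subunit it works with, gave 0.20 ± 0.17 (SE, adjusted p = 0.542).

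The noradrenaline carrier SLC6A2 had a low value without passing, -1.25 ± 0.44 (SE, adjusted p = 0.125), where pair 1 differed by -4.03 and the other pairs by -0.99 to 0.16. Its 3 probe sets ran from -1.25 to 0.18. The choline carrier SLC44A2 and SLC10A3 were higher in HZ in 6 of 6 pairs at 0.47 ± 0.15 and 0.43 ± 0.15 (SE, adjusted p = 0.0979 and 0.125), and SLC22A17 was lower in 6 of 6 at -0.40 ± 0.15 (adjusted p = 0.148). The carriers of folate (SLC19A1), creatine (SLC6A8) and taurine (SLC6A6) gave 0.36, -0.44 and -0.094 and did not pass. SLC7A6OS and SLC4A1AP gave -0.16 and 0.19.

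Differences of the zone effect between pairs 1 and 2 and pairs 3 to 6 were tested in 1 limma fit with a term for the set of pairs. Of the 252 SLC probe sets 0 passed after adjustment and 13 had an unadjusted p under 0.05, where 0.00833% and 5.02% of all probe sets did. Those 13 held SLC5A2 and SLC7A5 with the values given above. In 27 of the 51 genes with several probe sets, the differences of those probe sets had both signs. For SLC25A20 and SLC38A3, the genes with several probe sets of which 1 or more passed, all probe sets lay on the same side of 0.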

How the data were processed

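The deposited values are linear ratios, per the values themselves: each probe set's signal was divided by its own median over the 12 arrays, or, for 2227 dim probe sets, by 1 common value. The authors' steps before that ratio are not stated in any source read here beyond biotin-labelled cRNA on a bovine one-colour array, per the labels' protocols. Signals were recovered from the whole-number steps of the deposited ratios, taking 1 step as 0.1 signal units, an assumption that no source states. This solved 24127 of 24128 probe sets, the other being a control, with array medians of 96.6 to 96.7. On 4000 simulated probe sets 99.95% came out right. These were built from solved probe sets with their own divisor, on the same steps and the same whole-number rule. They therefore test the solving alone, and cannot test that rule, the steps or the dim probe sets.

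The zone difference was fitted by lmFit and eBayes of limma 3.58.1, run under R 4.3.3, on log2(signal + 16) with the pair as a fixed block, 5 residual degrees of freedom before moderation, and Benjamini-Hochberg adjustment over 24016 probe sets. No dim probe set was left out. Of the 252 members, 27 were among the dim probe sets with the common divisor. On simulated data for this comparison, 200 of 24016 probe sets were changed. In these, 46% of changes of log2 1 and 90% of changes of log2 2 were recovered, with 5 false calls. More probe sets passed in the real data (782 higher and 712 lower), so recovery there may differ. The shared numbers come from the labels, and the deviations of same-numbered arrays correlated at 0.124 to 0.447, above 0.1 in each of 6 pairs. Arrays of unlike number were not set beside them, so these correlations do not test the pairing.

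The members, lists and tests were chosen with earlier results of these data known. Named were the 17 genes that passed and the 28 measured of 33 transporters listed by name, 41 genes in all. Other members given by name were chosen after their values were seen. Gene names came from the platform table, and all 252 matched RefSeq (ARS-UCD2.0) with 0 changed. Alternatives were no pair block, 1 or 64 added in place of 16, the deposited ratio, quantile normalization, median centring, the brighter probe sets alone, subsets of pairs and the mean of a gene's probe sets. Promoter sequences were not used here, so a planned motif count was not made.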

Additional observations from a re-analysis of the deposited data

Results flagged for a closer look

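In 4 of 82 groups of 6 arrays tested, 1 array lay apart from the others of its zone. Its gap, taken on log2(signal + 16) and not on the signals given below, was above Dixon's 95% critical value for 6 samples. Chance gives such a flag in about 1 in 20 groups. All 4 were HZ-2. For SLC3A2 its signal was 1577, where the other HZ arrays ran from 2710 to 3105. For SLC25A37 it was 779, where the others ran from 1219 to 1583. For SLC1A5, a glutamine carrier that did not pass, it was 3302, where the others ran from 6000 to 8249. For SLC5A2 it was high, at 84.3, where the others ran from 15.7 to 21.5. Without pair 2 the log2 difference was -0.91 for SLC3A2, 1.13 for SLC25A37, -0.24 for SLC1A5 and -1.44 for SLC5A2 (limma, adjusted p = 0.0188, 0.013, 0.518 and 0.0104).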

How the results depend on the processing

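The 6 probe sets and 5 genes higher in HZ and the 12 probe sets and 12 genes lower were counted again under each alternative. With no pair block 5 probe sets and 5 genes were lower. With 1 added in place of 16, 2 probe sets and 1 gene were higher and 6 and 6 lower, and with the deposited ratio 2 and 1 were higher and 5 and 5 lower. Among the brighter probe sets 8 of 103 genes were higher and 17 lower, where fewer probe sets were tested. Over all 12008 brighter probe sets, 1034 were higher and 1374 lower. With 64 added 7 genes were higher and 14 lower, and over all probe sets 1017 were higher and 1120 lower. In pairs 1 and 2 alone, with 1 residual degree of freedom before moderation, 0 were higher or lower in limma, and in pairs 3 to 6 alone 3 probe sets and 3 genes were higher and 2 and 2 lower. Without pairs 3 and 4, chosen after seeing the data, 2 probe sets and 1 gene were higher and 1 and 1 lower. Over all 24016 probe sets, 782 were higher and 712 lower, and 505 and 326 with no pair block, 368 and 215 with 1 added, 315 and 163 with the deposited ratio, 258 and 78 in pairs 3 to 6 alone and 91 and 48 without pairs 3 and 4. With 1 pair left out, 3 to 5 probe sets and 2 to 4 genes were higher, and 3 to 16 and 3 to 15 lower. The causes were not tested beyond fewer samples.

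Signs turned for 7 genes that did not pass. SLC2A5 gave -0.0056 with 64 added, -0.021 after quantile normalization, -0.031 in pairs 1 and 2 and -0.080 as the mean of its probe sets, and -0.13 to 0.096 with 1 pair left out. SLC20A2 gave -0.0042 after quantile normalization, -0.025 in pairs 1 and 2, and -0.041 to 0.082 with 1 pair left out. SLC35B2 gave 0.033 after quantile normalization, 0.081 in pairs 1 and 2, 0.066 without pairs 3 and 4, and -0.058 to 0.019 with 1 pair left out. In pairs 1 and 2, SLC39A13 gave 0.10, SLC25A4 -0.23 and SLC16A3 -0.28. SLC16A3 gave -0.10 as a mean of probe sets and -0.0075 without pairs 3 and 4, SLC25A4 -0.011 to 0.10 with 1 pair left out, and SLC2A3 0.11 in pairs 3 to 6. With 1 pair left out, SLC39A13 ran from -0.20 to -0.058, SLC16A3 from 0.013 to 0.19 and SLC12A2 from 0.25 to 0.47. The amino acid median was -0.42 with 1 added and with the deposited ratio and -0.41 without pair 5, and the glucose median -0.41 in pairs 1 and 2 against -0.073 in all pairs. Dim signals limit SLC5A2, SLC37A1 and SLC39A8, whose size moves with the added constant. Sizes also moved for SLC51B (0.90 with 1 added and 0.50 with 64), SLC6A14 (-1.44 and -0.98), SLC38A3 (-0.92 and -0.65) and SLC2A6 (-0.80 and -0.56). With 1 added SLC5A2 still passed (limma, adjusted p = 0.0498). SLC37A1, SLC39A8 and SLC38A3 did not, nor did SLC25A37, SLC51B, SLC46A3, SLC4A7, SLC11A2, SLC30A5 and SLC6A20 (adjusted p = 0.0502 to 0.111).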
